A study of Mus musculus with 8 samples.

Results

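The genes examined here for DNA methylation in liver are those in which the inbred mouse strains C57BL/6J (B6) or DBA/2J (DBA) are known to carry functional variants: Ahr, Hc, Glo1, Gpnmb, Tyrp1, Myo5a, Cdh23, Fscn2 and Nnt. They are 9 of the 22350 protein-coding genes of the mm9 annotation (GENCODE M1). They were chosen by name, with earlier results of these data known. Their cytosines were all CG cytosines in the gene body or within 5 kb of it, which gave 1003 of the 1410966 CG cytosines with at least 10 reads in any mouse. Methylation had been read by reduced representation bisulfite sequencing (RRBS), in which the enzyme MspI cuts DNA at CCGG and bisulfite turns unmethylated cytosines into bases read as thymine. The livers came from 8 mice, aged 16 weeks and fasted for 16 h. A female and a male were taken of B6, of DBA, of the F1 cross C57BL/6JxDBA/2J (BXD) and of the reciprocal F1 cross DBA/2JxC57BL/6J (DXB). No transgene or treatment other than fasting is given in the labels, and each strain and sex is represented by a single mouse.

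The genes act in different tissues. Ahr encodes the ligand-activated transcription factor that senses dioxins, and DBA carries a form with low ligand affinity. Hc encodes complement component C5, made mostly in hepatocytes and missing from DBA plasma. Glo1 encodes glyoxalase, which detoxifies methylglyoxal and lies in a segment that is duplicated in DBA. Nnt encodes the mitochondrial transhydrogenase that makes NADPH, and C57BL/6J lacks some of its exons. Since the reference genome is that of C57BL/6J, the missing stretch has no coordinates in mm9. Gpnmb and Tyrp1 are pigment cell genes whose DBA alleles lead to iris disease. Myo5a encodes the myosin that carries pigment granules, and the dilute coat of DBA comes from a retroviral insertion in it. Cdh23 encodes a cadherin of the tip links of hair cells, and Fscn2 an actin bundling protein of hair cells and photoreceptors. The Cdh23 hearing loss allele is found in both B6 and DBA, so in that gene the known variant does not separate the strains, whereas the Fscn2 hearing loss allele is carried by DBA and changes codon 109.

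Sequence around the cytosines that differed most is shown for the plus strand of mm9, with each CG in capitals. The first windows hold the CGs called between the parents, at chr11:120223317-120223377 for Fscn2, chr13:120166274-120166334 for Nnt and chr10:60139528-60139588 for Cdh23. The called CG is the third from the left in Fscn2 and in Nnt, and the first in Cdh23.
Fscn2 coding exon: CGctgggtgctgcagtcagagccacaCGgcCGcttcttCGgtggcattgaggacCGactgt
Nnt intron: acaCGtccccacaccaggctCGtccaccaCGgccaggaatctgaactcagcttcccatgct
Cdh23 intron: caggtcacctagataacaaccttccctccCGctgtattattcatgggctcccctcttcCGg

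The other windows hold a Glo1 intron in which several CGs differed between the female parents (chr17:30743440-30743555) and the sites in Hc (chr2:34891990-34892072) and Nnt (chr13:120197606-120197666) where reads of the DBA mice gave no call.
Glo1 intron: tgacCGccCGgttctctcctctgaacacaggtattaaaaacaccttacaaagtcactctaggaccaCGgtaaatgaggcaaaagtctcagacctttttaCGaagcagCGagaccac
Hc intron: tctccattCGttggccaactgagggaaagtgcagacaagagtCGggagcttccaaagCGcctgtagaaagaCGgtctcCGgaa
Nnt first intron: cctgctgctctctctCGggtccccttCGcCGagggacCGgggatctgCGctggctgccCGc

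Coverage differed between libraries. Cytosine calls in all contexts numbered 200105682 to 843149415 per library (lowest in the DBA male, highest in the BXD male), and 527245 to 1227723 CG cytosines reached 10 reads. The library labelled B6 male carried DBA tags near 3 of the genes, and 29.3% of autosomal genes with tags had over 10% DBA tags in it. Of its cytosine calls from reads sorted by a SNP within 1 Mb, B6 tags made up 66.0% at Ahr, 52.7% at Glo1 and 50.5% at Nnt, and at least 98.9% at the others with tags. Male comparisons at Glo1 and Nnt, and fits there over all 8 mice, therefore use a library whose tags go against its label in part. Cdh23 had no tags within 1 Mb in any mouse, so the label of this library could not be checked there. Alb, Ttr, Apoa1, Serpina1a, Cps1 and Tat, the hepatocyte genes chosen to check the tissue, had 0 CG cytosines with 10 reads within 1 kb of their starts, so that the label liver could not be checked in this way.

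RRBS reached a small share of each gene. The windows hold 20470 CG cytosines in the reference, and 1033 of them (5.05%) had a read in a mouse or more, 1003 with at least 10 reads. Cdh23, the longest of the genes, gave 600 of the 1003. Myo5a gave 83, Gpnmb 65, Glo1 62, Fscn2 59, Nnt 59, Hc 53, Ahr 18 and Tyrp1 4. In all 8 mice 167 cytosines had at least 10 reads, with 105 in Cdh23, 25 in Glo1, 19 in Myo5a, 12 in Hc, 5 in Nnt and 1 in Fscn2. Ahr, Gpnmb and Tyrp1 had none.

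Strain differences were first sought between parents of the same sex, by the criterion of the study. A CG with at least 10 reads in both mice was called when the level in each mouse lay outside the exact 95% binomial interval of the other and the levels were more than 50 percentage points apart. Between the female parents 2 of 711 cytosines were called, 1 higher in B6 (Fscn2) and 1 higher in DBA (Cdh23), where 0.549% of all CG cytosines were called. Between the male parents 1 of 293 was called, in Nnt and higher in B6, where 0.422% of all were called. Hc, Glo1, Gpnmb and Myo5a had 0 calls in both sexes, and Ahr and Tyrp1 had no cytosine to compare. The median absolute difference was 3.13 percentage points between the female parents, against 2.50 over all CG cytosines, and 2.38 against 2.04 between the male parents. With other settings the female count was 4 with at least 5 reads (0.681% of all), 0 with at least 20 reads (0.521%), 14 with a difference above 30 points (1.62%), and 1 each when an adjusted p below 0.05 in Fisher's exact test was also asked (0.508%), with both strands added (0.55%) and with reads thinned to the less covered mouse (0.574%). The male count was 4 with a difference above 30 points (1.55%). With 1 mouse on each side the intervals hold counting error alone, and reads are not known to be independent molecules.

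**Figure D1:**
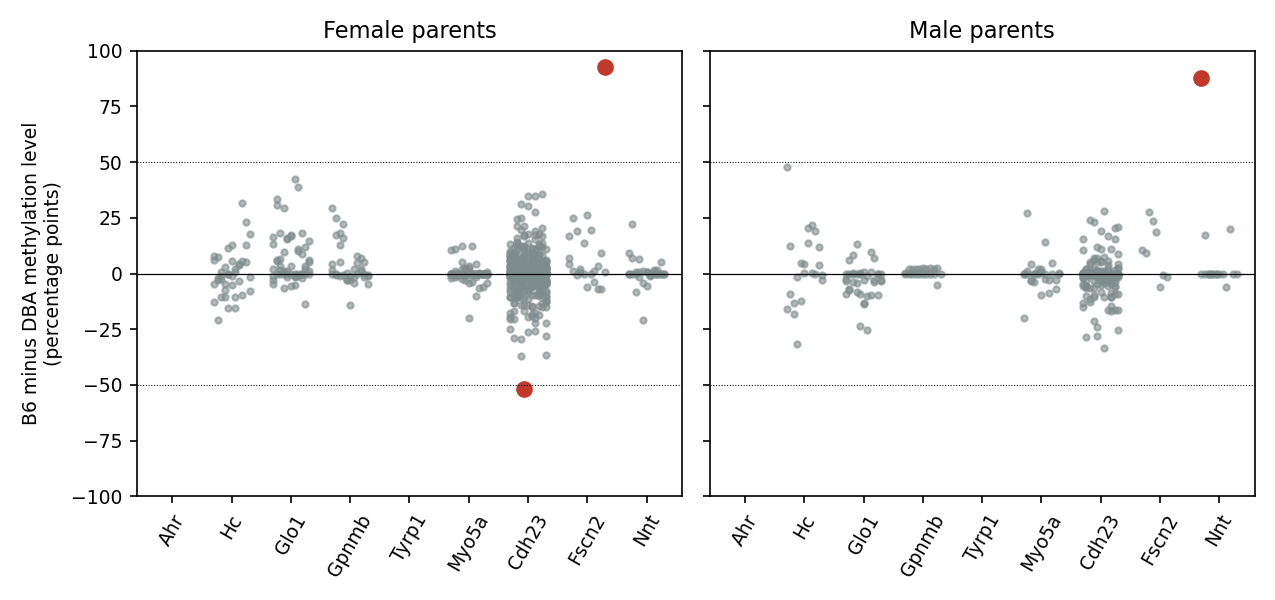
Difference in methylation level (B6 minus DBA, percentage points) at each cytosine with at least 10 reads in both parents, by gene, for the female (left) and male (right) parents. Red points are the cytosines called, gray points the rest, and dotted lines mark 50 points; 2 points in the females and 1 in the males lie beyond them.

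The called CG of Fscn2 lies at chr11:120223347 in a coding exon, in codon 109, the codon that the DBA hearing loss allele changes. A CG that is absent from the DBA chromosome and one that is unmethylated there cannot be told apart from these levels. Methylated reads were 13 of 14 in the B6 female, 4 of 4 in the B6 male, 0 of 12 in the DBA female, 1 of 47 in the DBA male and 14 of 27 in the BXD male, and the other F1 mice had no read. Both B6 mice were high, both DBA mice were at or near 0 and the F1 mouse lay between them. In the females the levels were 92.9% (exact 95% interval 66.1 to 99.8) and 0% (0 to 26.5), with an adjusted p of 0.00037 in Fisher's exact test.

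The reads sorted by tags split the same way within the F1 mouse. In the BXD male 14 of 14 reads from the B6 chromosome and 0 of 13 from the DBA chromosome were methylated. DBA-sorted reads were 0 of 44 in the DBA male. A minimum of 4 sorted reads was tried as an alternative to the 10 sorted reads used here. Across the chromosome sets with at least 4 sorted reads, B6 sets had 97.6 ± 4.12% methylation (SD, n = 3) and each of 3 DBA sets 0%. The sets did not overlap, and p was 0.1 in the two-sided exact permutation test, the smallest that 3 against 3 sets can give. The cytosine opposite, at 120223348, had 12 of 12, 4 of 4, 0 of 4, 0 of 90 and 20 of 35 methylated reads in the same 5 mice.

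The CGs nearby stayed methylated in DBA mice. At 120223343, the CG before it, methylated reads were 13 of 14 in the B6 female, 4 of 4 in the B6 male, 12 of 12 in the DBA female, 45 of 47 in the DBA male and 22 of 27 in the BXD male. Sorted by chromosome, the BXD male had 92.9% on B6 and 69.2% on DBA at this neighbour. Over the cytosines of this exon with at least 10 reads in each mouse, from 120223273 to 120223825, mean levels were 77.6% to 91.5% in the 7 mice with such reads. Whether the CG is present on the DBA chromosome was not tested, as SNP positions were not used here, and this holds for every CG named below.

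**Figure D2:**
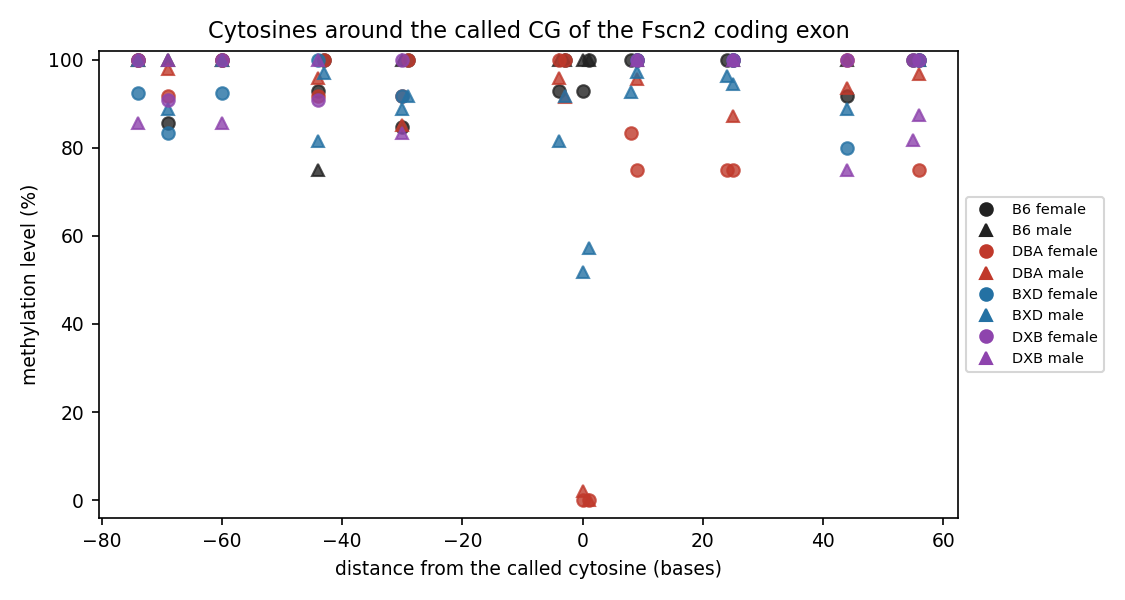
Methylation level (%) of cytosines near the called CG of Fscn2, by distance in bases along the chromosome, with 1 point for each mouse that had at least 4 reads. On both strands of the called CG the DBA mice lie at or near 0%, the B6 mice above 90% and the BXD male near the middle, while the other cytosines shown are at 75% or above in every mouse.

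The called CG of Nnt, at chr13:120166304 in an intron, was highly methylated in B6 and almost unmethylated in the DBA male. Methylated reads were 67 of 71 in the B6 female, 23 of 25 in the B6 male, 0 of 1 in the DBA female, 1 of 23 in the DBA male and 77 of 96 in the BXD male. The male levels were 92.0% (exact interval 74.0 to 99) and 4.35% (0.110 to 21.9), with an adjusted p of 1.45e-07 in Fisher's exact test. In the BXD male 76 of 84 reads from the B6 chromosome were methylated, against 0 of 10 from the DBA chromosome. If the CG is present on that chromosome, a count of 0 in 10 reads allows a level of up to 30%. In the DBA male 0 of 21 DBA-sorted reads were methylated, which allows up to 14.3%, and its 1 methylated read was sorted to B6. The DBA female had a single read here, so the female parents could not be compared. The neighbour at 120166294 was methylated on both chromosomes of the BXD male, in 47 of 50 B6-sorted and 55 of 60 DBA-sorted reads. On the same strand as this neighbour lies 120166303, the cytosine opposite the called one. It had 31 of 37 methylated reads in the B6 female and 45 of 50 in the BXD male. Every sorted call at 120166303 came from the B6 chromosome, and no DBA-sorted read gave a call in any mouse. The DBA female had 1 call there, sorted to B6, beside 12 reads at 120166294.

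The called CG of Cdh23, at chr10:60139558 in an intron, was the one site with the higher level in DBA. Methylated reads were 8 of 21 in the B6 female, 1 of 4 in the B6 male, 9 of 10 in the DBA female and 33 of 50 in the DBA male, and in the F1 mice 11 of 18 (BXD female), 18 of 25 (BXD male), 4 of 6 (DXB female) and 5 of 7 (DXB male). The F1 levels lay between those of the parents in the females and above both parents in the males. The female levels were 38.1% (exact interval 18.1 to 61.6) and 90% (55.5 to 99.7). Fisher's exact test gave p = 0.008902 unadjusted and 0.304 after adjustment over all CG cytosines. The opposite strand had 6 of 9 methylated reads in the B6 female and 4 of 6 in the DBA female. No read within 1 Mb of Cdh23 was sorted to a strain in any mouse, which was so for 14.5% of autosomal genes.

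Smaller differences gathered in Glo1. When any difference was accepted at an adjusted p below 0.05 in Fisher's exact test, as was tried once the values were known, 12 of the 711 cytosines passed between the female parents (1.42% of all CG cytosines passed) and each was higher in B6. Glo1 held 8 of the 12, Cdh23 2, Gpnmb 1 and Fscn2 1. Between the male parents 1 of 293 passed, the Nnt CG above (0.957% of all).

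Of the 8 in Glo1, 5 were in the intron printed above and 3 downstream of the gene. At chr17:30743547 the B6 female had 49 of 73 and the DBA female 31 of 125 reads methylated (Fisher's exact test, adjusted p = 1.27e-06), and the BXD male 85 of 213. At 30743548, the cytosine opposite, the values were 94 of 148, 53 of 213 and 159 of 358 (exact test, adjusted p = 8.02e-11). The other 5 mice had no read at this pair. At 30743448, in the same intron, levels were 54.8% and 31.2% in the B6 female and male (16 reads in the male), 24.1% (DBA female), 44.8% in the BXD female, 32.1% in the BXD male, 30.1% in the DXB female and 38.1% in the DXB male. The F1 mice lay between the female parents at each of these sites. The B6 male lay among the F1 mice at 30743448. At 30743506 it was below both female parents, with 1 of 15 methylated reads beside 34 of 73 in B6 and 23 of 133 in DBA.

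Over the 7 cytosines of this intron stretch common to all mice, 30743312 to 30743635, the mean was 38.3% and 19.1% in the B6 female and male, 25.1% and 23.2% in DBA, 32.3% and 23.5% in BXD, and 41.9% and 30.2% in DXB. The strains overlapped once the males were counted, and each female exceeded the male of her strain. No sorted reads fell on Glo1, so its chromosomes could not be compared within the F1 mice.

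For genes without a call, the cytosine with the widest strain difference and 10 reads in every parent is given as a description. In Glo1 this was 30727612, downstream of the gene, at 68.1% and 41.9% in the B6 female and male, 34.7% and 35.7% in DBA, 56.6% and 30.2% in BXD, and 50.7% and 26.9% in DXB. In Hc it was chr2:34838310, downstream of the gene, where 7 mice lay between 73.9% and 82.4% and the DBA male had 28.6% on 14 reads. In Myo5a it was chr9:74918610, upstream of the gene, with 34.2% and 61.5% in B6 and 23.1% and 34.5% in DBA on 13 to 38 reads. The strains overlapped in Myo5a and in Hc, and in Glo1 both B6 levels were above both DBA levels. These sites were picked for their strain difference, so the order of the strains at them is no test. The share of all cytosines with such an order was not counted, and the library labelled B6 male carried DBA tags near Glo1.

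Replicate mice for the strains come only from all 8 livers together. The level at each CG with at least 10 reads in every mouse was fitted with limma by the number of DBA chromosome sets (0 in B6, 1 in F1, 2 in DBA), the deviation of the F1 mice from the mean of the parents, and sex. By strain dosage 0 of 167 cytosines were called at an adjusted p below 0.05, where 0.204% of all were called. The lowest adjusted p in limma was 0.122. At an unadjusted p below 0.05 there were 15 of the 167, or 8.98%, beside 6.80% of all CG cytosines. By F1 deviation 0 were called as well (0.000576% of all), with 0.378 as the lowest adjusted p in limma. The median absolute change for each DBA set was 1.24 percentage points, against 0.992 over all. The 3 called CGs could not enter this fit, having too few reads in some mice.

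Averaged over the same cytosines, 5 of the genes had a mean from at least 5 cytosines and were fitted with limma among 10136 genes. By strain dosage 0 of 5 were called (0.848% of all genes), and the adjusted p was 0.999 for each. By F1 deviation 0 of 5 were called (0.0% of all genes).

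In Hc the means were 80.3% and 71.1% in the B6 female and male, 80.7% and 68.7% in DBA, 84.6% and 73.1% in BXD, and 80.5% and 73.4% in DXB. The change for each DBA chromosome set was -0.498 ± 0.811 percentage points (SE). In Glo1 they were 40.0% and 30.3% in B6, 32.9% and 32.7% in DBA, 38.4% and 29.1% in BXD, and 41.5% and 33.9% in DXB, with a change of -1.20 ± 1.33 points. In both genes the B6 and DBA mice overlapped and the females of a strain lay above the males.

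In Cdh23 the 8 means stayed between 37.1% and 39.2%, with a change of 0.477 ± 0.591 points. In Myo5a they stayed between 7.17% and 10.5%, with a change of 0.246 ± 0.745 points. In Nnt they stayed between 0.938% and 2.71%, with a change of -0.0170 ± 0.613 points. Most of the cytosines counted in Myo5a and Nnt lay at the starts of the genes, which had little methylation. In Cdh23 both DBA mice were above both B6 mice (39.1% and 38.0% against 37.4% and 37.7%), as was so for 9.14% of genes, and in Myo5a and Nnt the parents overlapped. Without the library labelled B6 male the strain term was -2.20 points in Glo1 and -0.315 in Nnt (limma, adjusted p = 0.999 for both).

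The single Fscn2 cytosine common to all mice lay between 51.2% and 62.6%. Both DBA mice (60.6% and 61.3%) were above both B6 mice (56.8% and 59.7%). The share of all CG cytosines with this order was not counted. By strain dosage, permuting the mice gave p = 0.486 (exact test, two-sided). Gpnmb had no common cytosine. Over the 18 shared by the female parents and the F1 mice, its mean was 33.3% in B6, 29.5% in DBA and 29.7% to 33.7% in the F1 mice. One F1 mouse, the DXB male, was above both parents.

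**Figure D3:**
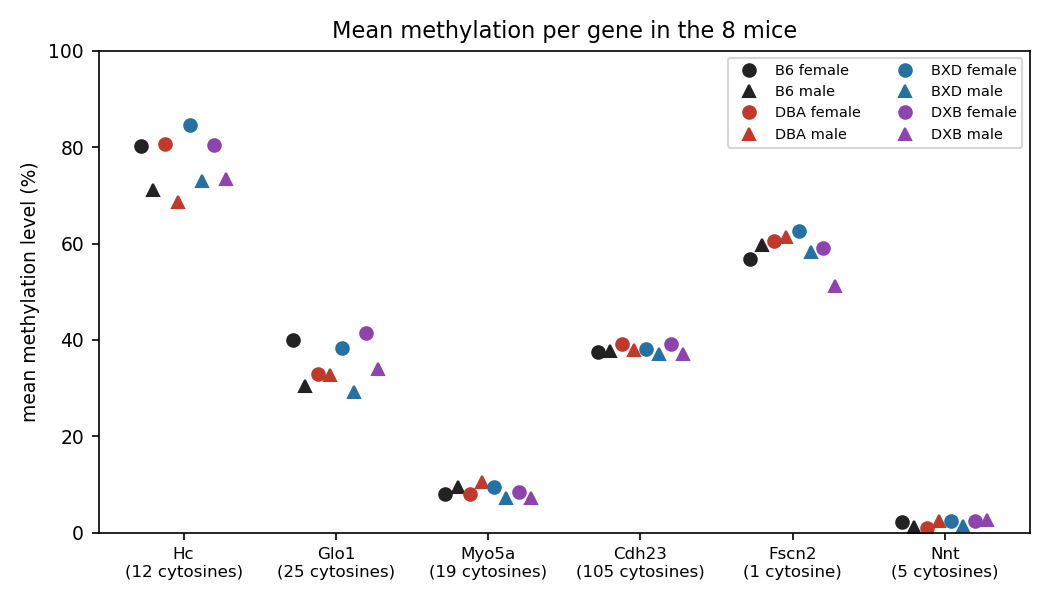
Mean methylation level (%) of each gene in the 8 mice, over cytosines that reached 10 reads in all of them (number under each gene). Circles are females and triangles males; in Hc every female lies above every male, and the B6 and DBA mice overlap in Hc, Glo1, Myo5a and Nnt.

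Sex stood apart from strain in Hc, the gene of complement C5. The 4 females had 81.6 ± 2.04% methylation and the 4 males 71.6 ± 2.18% (mean ± SD). The lowest female (80.3%) was above the highest male (73.4%), with p = 0.0286 in the two-sided exact permutation test, the smallest that 4 against 4 mice can give. All 4 females were above all 4 males in 1.85% of genes. In limma the difference was 9.99 ± 1.15 percentage points (SE), with an adjusted p of 0.0397. Hc was 1 of 5 members called by sex, where 10 of 10136 genes (0.0987%) were called, each higher in females.

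The sex difference in Hc was uneven over its cytosines. The mean was higher in females at 12 of 12, by 0.108 to 22.5 percentage points, as it was higher at 86856 of all 173739 CG cytosines tested (50%). Every female lay above every male at 2 of the 12, against 1.41% of all. One of the 2 was chr2:34890234 in an intron, where the means were 70.1% and 47.6% (limma, adjusted p = 0.767). The other was 34912796 in a coding exon, with 95.6% and 85.5% (adjusted p = 0.845). No single cytosine of Hc passed after adjustment, and 0.0% of all CG cytosines did. The 12 are only those read in every mouse. Over the 42 Hc cytosines with at least 10 reads in all F1 mice the means lay closer together. They were 71.9% and 66.4% in the BXD female and male, and 71.0% and 67.6% in DXB.

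The call in Hc was sensitive to the settings. It held with at least 5 reads (limma, adjusted p = 0.0476). It was lost on the log2 scale of methylated to unmethylated reads (adjusted p = 0.917), with reads added over cytosines (0.602), in the gene body alone (0.0682) and whenever any 1 mouse was left out (0.0701 to 0.240). In Glo1 the sex difference was 6.71 ± 1.88 points, higher in females, with an adjusted p of 0.506 in limma. The female and male means of Glo1 were near each other in DBA, and its strain term was not called as different between the sexes (limma, adjusted p = 1).

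**Figure D4:**
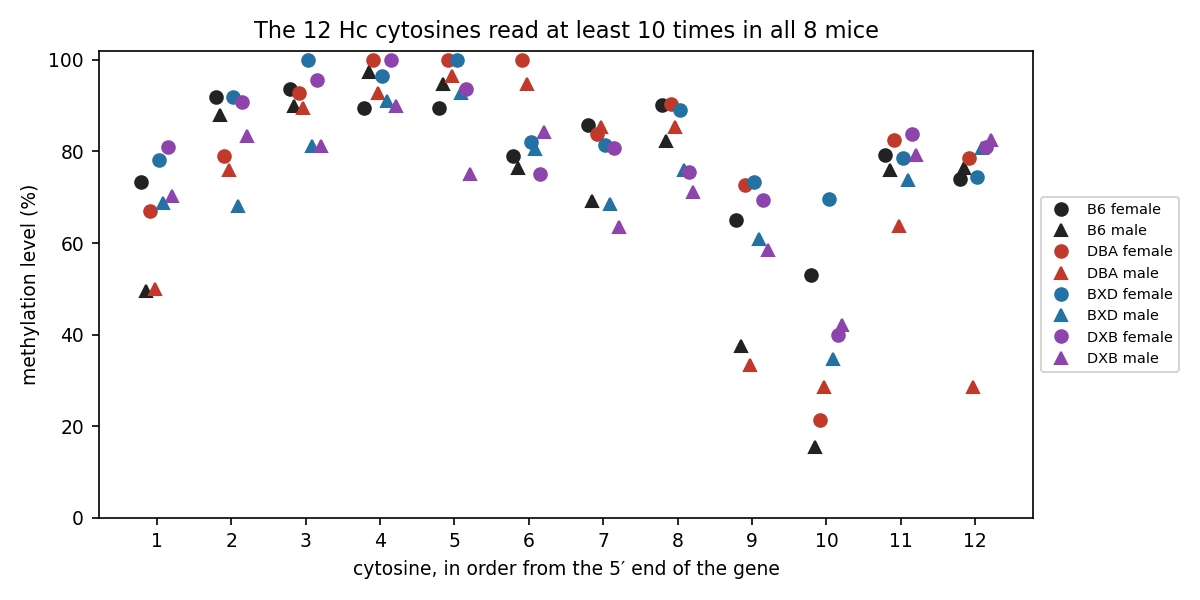
Methylation level (%) of the 12 Hc cytosines with at least 10 reads in all 8 mice, in order from the 5′ end of the gene, with circles for females and triangles for males. Females tend to lie above males, and their means are higher at 12 of 12 cytosines although the single points overlap at most of them.

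Sorted reads allow the B6 and DBA chromosomes to be compared over 6 sets of each strain, from the parents and from both chromosomes of each F1 mouse. Such reads covered only Hc, Gpnmb, Fscn2 and Nnt. With at least 10 sorted reads in 3 or more sets of each strain, 17 cytosines could be tested in Hc, Gpnmb and Nnt, and 0 were called by the criterion of the study (sets more than 50 points apart, with an unadjusted p below 0.05 in the study's parametric test on the levels), where 5.02% of all were. The median absolute difference was 1.05 percentage points, against 2.28 over all. With at least 4 sorted reads 1 of 39 was called, the Fscn2 CG above (4.74% of all). The study's test on the levels is parametric and can pass its threshold with 3 sets on each side, which the exact permutation test given for this CG cannot.

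In Hc the mean over sets was higher on the DBA chromosome at the 4 cytosines tested. These lie close together on the same strand, from 34891999 to 34892069, with equal numbers of sorted reads in each parent, so they are not independent. The shares of all tested cytosines with this order, or with sets that do not overlap, were not counted. At chr2:34891999 the B6 sets had 64.1 ± 3.13% (60.5 to 66.1) and the DBA sets 71.8 ± 4.12% (67.2 to 75), with 3 sets each that did not overlap (exact permutation p = 0.1, the smallest possible). At 34892033 the means were 78.1 ± 7.54% (n = 6) and 88.1 ± 11.8% (n = 4), with p = 0.143 in the exact test. The sets overlapped at this and the other Hc sites. Within F1 mice this order was not kept. In the BXD female 34892033 had 92.3% on the B6 and 73.3% on the DBA chromosome, and 34892069 had 100% and 93.3%. In the BXD male the DBA chromosome was higher at the 4 cytosines, by 1.09 to 8.10 points.

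The B6 and DBA chromosomes of an F1 mouse were also compared within the mouse, a setting added after the data were seen. With at least 3 F1 mice that had 10 sorted reads on each chromosome, 12 cytosines of Gpnmb and Nnt could be tested and 0 were called, where 5.82% of all were. Their median absolute difference within mice was 1.30 percentage points, against 2.72 over all.

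Near the start of Nnt both chromosomes were almost unmethylated. The highest of its tested cytosines, chr13:120197644, had 8.6 ± 3.36% on B6 and 9.18 ± 3.76% on DBA chromosomes (n = 6 each, exact p = 0.801). Downstream of Gpnmb, chr6:49024093 had 10.6 ± 5.05% and 15.2 ± 11.9% (exact p = 0.398), and the other tested cytosines there were below 2% on both.

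Levels also differed between stretches of a gene's window. The stretch downstream of Gpnmb (49023936 to 49024324, 43 cytosines), which lies within 1 kb of the start of another gene, 2410003K15Rik, had mean levels of 0.718% to 3.03% in the 8 mice, whereas an intron of the gene (49012808 to 49012998) had 88.6% to 96.0% in the 7 mice read there. In Myo5a the stretch at the start of the gene (74918593 to 74918915) had 3.44% to 8.28%, and an intron and exon far inside it (75041924 to 75042172) had 84.7% to 93.9%. In Nnt the stretch upstream of the gene (120197873 to 120198196) had 2.21% to 9.70%, and an intron of the gene (120166217 to 120166371) had 90.6% to 100% in all but the DBA male, where it had 43.5% on 2 cytosines, the called CG among them. These ranges are over the cytosines read in each mouse, which differ between mice.

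Ahr was read in B6 and F1 mice but not in DBA mice. Its reads lay at the start of the gene, in the part annotated as UTR, and within 1 kb of the start of another gene, Gm17436. Mean methylation over the 9 cytosines common to the B6 and F1 mice was 1.39% and 3.83% in the B6 female and male, 4.45% and 0.397% in BXD, and 0% and 1.99% in DXB. The DBA mice had no read at 9 of 9 of these cytosines, which lie in 1 stretch of CGs and so are not separate absences. Of all autosomal CG cytosines with at least 10 reads in both B6 and all F1 mice, 3.5% had no DBA read. The reverse, no B6 read, held for 0.00102%. The reads of the F1 mice at Ahr could not be sorted, so which chromosome they came from was not tested.

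Tyrp1, an enzyme of melanin synthesis, gave 4 cytosines with 10 reads in the B6 female and 3 of them in each DXB mouse. At chr4:80480827 in an intron methylated reads were 28 of 34 in the B6 female, 15 of 15 in the DXB female and 9 of 11 in the DXB male. At 80481130 in codon 51 they were 13 of 13, 14 of 24 and 10 of 18, and at 80481090 in codon 38 they were 8 of 13, 11 of 23 and 7 of 18. Only 4 of the 388 reference CG cytosines of Tyrp1 and its flanks had a read in any mouse, all of them within 1103 bases downstream of its start, and no DBA level could be given.

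Reads also passed over single cytosines within stretches they covered. Of 326 cytosines that had at least 10 reads in the B6 female and DBA female reads at CGs of the same strand within 50 bases on both sides, 2 had no call in the DBA female, beside 0.0618% of all such cytosines. In Hc this was chr2:34892048 on the minus strand, methylated in 34 of 38 reads in the B6 female, 37 of 38 in the B6 male, 13 of 13 and 55 of 59 in BXD, and 9 of 10 and 11 of 13 in DXB. In Nnt it was chr13:120197636 on the minus strand, with 0 of 145, 0 of 35, 0 of 97, 0 of 82, 1 of 69 and 1 of 63 in the same order. Neither DBA mouse had a call at these sites, and every sorted call there in the F1 mice came from the B6 chromosome. By the same count 3 of 194 cytosines had no call in the DBA male (1.92% of all such cytosines), these 2 and 1 in Glo1, and 2 of 228 had none in the B6 male (0.436% of all), in Glo1 and Cdh23, where the DBA male, the BXD female and both DXB mice had no read either. With the strains exchanged, 0 of 325 had no call in the B6 female (0.000256% of all).

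Because Glo1 is duplicated in DBA, read depth was compared as well, as the share of the CG reads of a library that fell on the common cytosines. At Glo1 reads per 1000000 were 89.1 and 103 in the B6 female and male, 135 and 220 in DBA, 134 and 173 in BXD, and 91.5 and 134 in DXB. Both DBA mice were above both B6 mice, as was so for 6.06% of genes. The term for each DBA set was 0.42 ± 0.17 (SE) on the log2 scale, not past the threshold (limma, adjusted p = 0.408), with p = 0.0333 in the two-sided exact permutation test. Over all genes the median of this term was -0.15 on the log2 scale, and 0 of 10136 genes were called (0.0% of all), with 1190 at an unadjusted p below 0.05. Without the library labelled B6 male the Glo1 term was 0.34 (adjusted p = 0.881). With at least 20 reads at each cytosine it was 0.03 (adjusted p = 0.946).

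Of its neighbours within 500 kb, Dnahc8, a dynein gene, had 142 and 206 reads per 1000000 in B6, 344 and 229 in DBA, 288 and 279 in BXD, and 230 and 312 in DXB. Its log2 term was 0.36 (limma, adjusted p = 0.481). Zfand3 had 71.2 and 78.4 in B6 against 33.1 and 48.1 in DBA, the order found in 23.1% of genes, with a term of -0.45 (adjusted p = 0.375). The parents overlapped at the other 3 neighbours, and their terms lay near the median of all genes. Btbd9 had 54.3 and 46.5 in B6 against 29.7 and 46.9 in DBA, with a term of -0.21. For Glp1r the values were 67.9 and 55.8 against 101 and 26.5, with a term of -0.13. Abcg1 had 71.4 and 75.1 against 86.7 and 45.9, with a term of -0.11. None of the 5 neighbours passed the test. Depth and methylation of Glo1 in the DBA female differed from the B6 female at the same time, and the part of depth in the methylation difference was not tested.

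**Figure D5:**
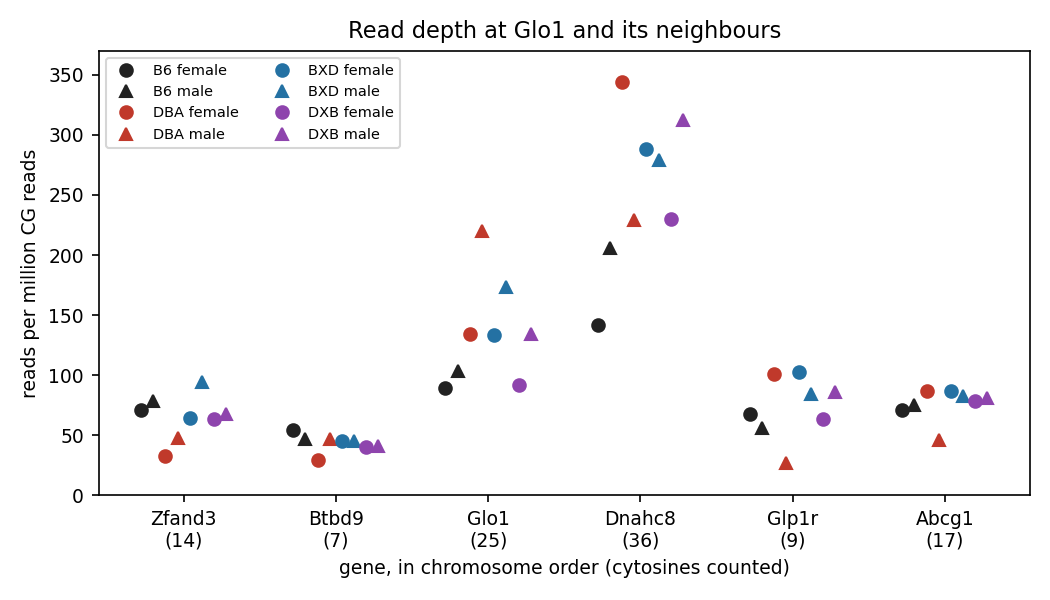
Share of the CG reads of a library (reads per 1000000) on Glo1 and the genes near it in the 8 mice (number of cytosines under each gene), with circles for females and triangles for males. At Glo1 and Dnahc8 both DBA mice lie above both B6 mice, and at Zfand3 both lie below.

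The other genes of the same pathways were taken from lists of 8 genes for each of 5 functions. Between the female parents 16 of 1389 of their cytosines were called (1.15%, beside 0.549% of all CG cytosines), 12 of them higher in B6, and between the male parents 2 of 568 (0.352%, beside 0.422% of all). Most of the 16 lay in Dct, Myo7a, Gsr and Rab27a, and some CGs were counted on both strands. The lists were chosen with earlier results of these data known, so these shares are a description and no test. By strain dosage 0 of 297 cytosines were called in the 8 mice (0.204% of all), and 0 of the 18 genes with a mean (0.848% of all genes; limma, lowest adjusted p = 0.365). By F1 deviation and by sex 0 of the 18 were called as well (0.0% and 0.0987% of all genes).

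The pigment cell list held 6 of 182 called cytosines in the females (0.549% of all CG cytosines) and 0 of 54 in the males (0.422% of all). The 6 lay in 2 genes. Dct, which encodes an enzyme of melanin synthesis like Tyrp1, held 4 of the 6, such as chr14:118442443 with 36 of 39 methylated reads in B6 and 1 of 49 in DBA. Rab27a, the GTPase that links pigment granules to Myo5a, held the other 2, both strands of a CG with 131 of 146 and 10 of 75 at chr9:72932163. The hair bundle list, which holds partners of Cdh23 and Fscn2, had 5 of 575 in the females (0.549% of all) and 2 of 289 in the males (0.422% of all). Myo7a, a motor of the hair bundle, held 4 of them on 2 adjacent CGs, and the male parents differed there too, with 77 of 98 and 0 of 139 at chr7:105203065 and 93 of 98 and 1 of 139 at 105203071.

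The list of genes around glyoxalase and mitochondrial NADPH had 4 of 248 in the females (0.549% of all) and 0 of 99 in the males (0.422% of all). Hagh, the enzyme after Glo1 in methylglyoxal detoxification, had 92 of 95 methylated reads in B6 and 0 of 216 in DBA at chr17:24994427. Gsr, glutathione reductase, had 3 cytosines higher in DBA, among them chr8:34776774 with 28 of 115 and 90 of 92. Terminal complement had 1 of 121 in the females (0.549% of all), in C8g, with 5 of 35 and 7 of 10, and 0 of 42 in the males (0.422% of all). The list of the aryl hydrocarbon receptor, with its partner Arnt and targets such as Cyp1a1, had 0 of 263 in the females (0.549% of all) and 0 of 84 in the males (0.422% of all).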

How the data were processed

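RRBS had been made from 8 livers, 1 library for each mouse. The authors digested DNA with MspI, aligned bisulfite reads to mm9 with BS Seeker (version not given in the sources used here) and sorted reads holding a SNP to B6 or DBA. The authors deposited, for each cytosine and mouse, counts of methylated and unmethylated reads by class, with the level as a fraction. Their tables of their own comparisons (mean levels, differences and p-values), with 12 columns of values of single mice, were not used. Counts were added over classes, each strand of a CG being 1 site, with positions counted from 1 and genes from GENCODE M1. Groups came from the labels.

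Levels, gene means and log2 read shares were fitted on all autosomal features with limma 3.58.1 (R 4.3.3) and adjusted by Benjamini-Hochberg. The log2 scale of methylated to unmethylated reads used a pseudocount of 1. Other work was done with Python 3.11.15 (scipy 1.17.1, numpy 2.4.6, numba 0.67.0, pandas 2.3.3, matplotlib 3.10.9). Members and lists were chosen with earlier results of these data known. CGs were named where called, and otherwise by the largest parental difference with 10 reads in all 4 parents. Glo1 CGs passing Fisher's test alone, stretches within genes, the sex term of Hc and sites without DBA reads were chosen after their values were seen.

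Mean coverage at CGs with at least 10 reads was 51.4 to 96.0. On simulated data the criterion for parents recovered 92% of changes of 60 points in females and 91% in males, and that for sorted reads 97%. These changes were placed at CGs of low methylation, with counting error alone and no spread between mice. Limma recovered 1%, 14%, 40% and 80% of changes of 10, 20, 30 and 45 points for each DBA set over 173739 CGs. Those were placed at CGs of middle level, with a small assumed spread between mice. The shares hold for these settings only. Alternatives covered minimum reads, size of difference, Fisher's test, strands added, thinned reads, gene body alone, chromosomes within F1 mice, scale of levels and leaving out each mouse.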

Additional observations from a re-analysis of the deposited data

Results flagged for a closer look

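A single mouse stood apart from the others of its group in 5 of the 23 groups of values examined by Dixon's criterion, where chance gives about 1 in 20. Among the 4 females the Hc mean was 84.6% in the BXD female and 80.3% to 80.7% in the others, and the Nnt mean was 0.938% in the DBA female and 2.21% to 2.45% in the others. The DBA male, which had the fewest cytosine calls, had low log2 read shares (reads per 1000000 CG reads) in 3 genes: 5.04 in Hc (5.93 to 6.19 in the other mice), 5.05 in Myo5a (6.38 to 7.15) and 2.27 in Nnt (4.46 to 5.62).

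Outside CG, 42 cytosines in the windows were above 20% methylation in 1 mouse or more with at least 10 reads, of which 18 were in Glo1, 14 in Cdh23 and 7 in Hc. Of 1960 to 6058 such cytosines read per mouse, 2 to 22 passed, and the share over the whole genome was not computed. Most of those in Glo1 lay at 30727735 to 30727802, where the DBA female had 3 or 4 of 11 to 14 reads methylated. Most in Cdh23 lay at 60149955 to 60149998, where the DXB female had 3 of 12. In 2 mice or more 4 cytosines were above 20%, and these lay in Hc in the CHH context (H is any base but G), where pooled levels outside CG in the windows of the 9 genes were 0.396% to 1.21%. At chr2:34890795 the highest level of a mouse with 10 reads was 50.2% (DBA female, 105 of 209 reads, against 47 of 138 in the B6 female and 26 of 104 in the B6 male). At 34890945 it was 42.5% (DBA female, 74 of 174, against 33 of 128 and 28 of 80). At 34891888 it was 32.2% (BXD male, 19 of 59). At 34892020, in the stretch printed above, it was 53.6% in the DBA male (30 of 56) and 53.3% in the DBA female, 23.7% and 8.11% in the B6 female and male, and 25% to 35.8% in the F1 mice, so that the F1 levels lay between those of the strains. This cytosine had not been chosen for its strain difference, which was not tested.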

How the results depend on the processing

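Of 81 alternatives to the counts of calls 71 left the count within 1.5 times the reported one. In most of these 71 the reported count was 0 and stayed 0. Between the female parents the count of 2 became 4 with at least 5 reads, 0 with at least 20, 14 with a difference above 30 points, 1 each with Fisher's test after adjustment, with strands added and with thinned reads, and 12 with any difference by Fisher's test, which was added after the data were seen. Between the male parents 1 became 4 with a difference above 30 points. With sorted reads 0 became 1 with at least 4 reads. For read depth, leaving out each mouse gave 0 to 3 calls, and the 3 came without the DBA female, where 34.4% of all genes were called. The cause was not tested.

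For single genes 64 of 85 alternatives kept direction and side of the threshold, and 11 ended the sex call of Hc, as given above. Terms for strain, none past the threshold, changed sign 10 times. In Hc the term was 0.437 in the gene body alone (added after the data were seen), and leaving out each mouse gave -1.18 to 0.185. In Myo5a and Nnt it was -0.226 and 0.151 with at least 5 reads, and -0.572 to 1.06 and -0.542 to 0.508 with each mouse left out. In Cdh23 it was -2.13 with reads added over cytosines, and in Glo1 -3.36 to 0.960 with each mouse left out. In these fits a strain left with 1 mouse was assumed to vary like the others. With the F1 mouse as a replicate block, its chromosomes being paired, sorted reads gave 0 calls as before (added after the data were seen). Between mice of different strains no pairing was used, because the labels give no replicate numbers that tie them. Ahr and Tyrp1 had no cytosine with 10 reads in both parents of a sex, and the cause was not tested.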
